A study of Mus musculus with 44 samples.

Results

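Striatal gene expression was compared between male mice of the C57BL/6J (B6) and DBA/2J (D2) inbred strains on Affymetrix MOE430 2.0 arrays. The comparison holds 10 of the 44 arrays of the series: the 5 B6 males numbered 66 to 70 and the 5 D2 males numbered 76 to 80. All 10 mice were naïve adults, with no treatment, transgene or mutation added to either strain, and an age beyond adult was not given in the sources used here. The striatum was dissected by hand from a coronal slice and total RNA was extracted with TRIzol, and each mouse has 1 array. The series also holds Affymetrix arrays of 10 female mice (5 of each strain) and Illumina arrays of 24 male mice (12 of each strain), which were other animals and are used here only to give values for genes called in these males. Of the 45101 probesets of the array, 64 are controls and 38870 of the rest have values. The upper 50% by mean over the 20 Affymetrix arrays were kept, which left 19437 probesets with a mean log2 value of at least 6.19, and these stand for 10778 genes.

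The striatum is the main input nucleus of the basal ganglia. Most of its neurons are GABAergic medium spiny neurons, which receive glutamate from cortex and thalamus and dopamine from the midbrain, and which belong either to the direct pathway (Drd1, Tac1, Pdyn) or to the indirect pathway (Drd2, Penk, Adora2a). B6 and D2 are the parents of the BXD recombinant inbred lines and are known to differ in many drug and alcohol responses. The probes of the array follow the B6 sequence, so a sequence variant under a probe can lower the D2 signal without a change in transcript level. Probes over known SNPs had been masked, but for variants outside that mask transcript level and hybridization cannot be told apart with these data.

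The sex and strain labels of the 10 arrays matched their signals. Kdm5d, a Y-linked demethylase gene, had log2 values of 7.29 to 7.62 in the males and 3.28 to 3.61 in the females. Xist, the RNA that silences the inactive X chromosome, had values of 3.42 to 3.89 in the males and 9.46 to 10.70 in the females. At 193 probesets chosen from the females alone, with 0 for the D2 level and 1 for the B6 level, the B6 males had median positions of 0.98 to 1.02 and the D2 males of -0.02 to 0.03. The striatal markers Ppp1r1b (DARPP-32), Penk and Tac1 had values of 10.99 to 12.12, 12.01 to 12.93 and 11.62 to 12.41, high in every male of both strains.

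Marker genes of tissue next to the striatum varied among the samples. Ttr, which encodes transthyretin of the choroid plexus, had values of 10.82, 14.25, 13.61, 11.19 and 10.41 in B6 males 66 to 70. In D2 males 76 to 80 its values were 7.13, 13.93, 14.18, 14.18 and 13.96. D2 male 76 thus lay far below the other D2 males, and B6 males 67 and 68 were near the D2 level. Over the 11 choroid plexus genes with values, the mean level was 5.61 to 8.46 in B6 and 5.25 to 8.31 in D2. The mean of the 5 mice was 6.53 in B6 and 7.49 in D2. Shox2, a transcription factor gene of thalamic neurons, was 4.53, 10.36, 6.23, 4.35 and 5.76 in the B6 males and 4.16, 9.28, 8.17, 9.15 and 6.37 in the D2 males. Neurod6, a transcription factor gene of cortical excitatory neurons, was lowest in B6 male 67 at 4.28, against values up to 8.85 in the other B6 males and 7.49 to 9.75 in the D2 males. B6 male 67 was also the array least like its group, with correlations over all kept probesets of at most 0.964 with the other B6 males, which correlated at 0.973 or more among themselves. The D2 males correlated at 0.976 to 0.990. The median strain difference was -0.98 over the 7 tested choroid plexus genes, with 0 of them above 0. It was -0.36 over the 8 cortical genes, with 1 above 0, and 0.00 over the 5 tested thalamus and septum genes. No gene of these 3 lists was called between the strains. The count of calls is also given without B6 male 67 and D2 male 76. In whole tissue, fewer cells of a type and less RNA per cell cannot be told apart.

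**Figure D1:**
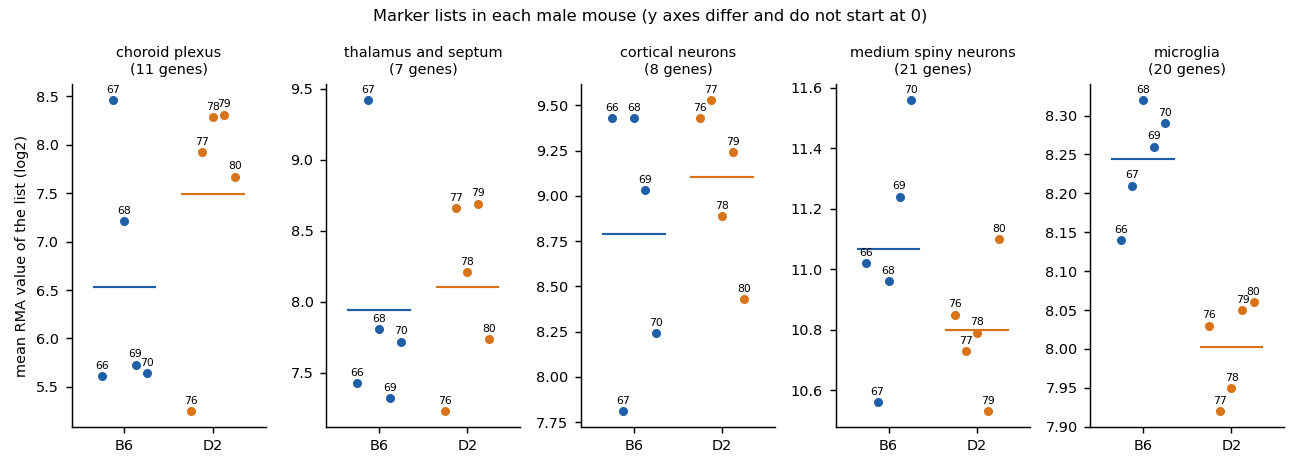
Mean RMA value (log2, y axis) of 5 marker lists in each of the 5 B6 males (blue) and 5 D2 males (orange), each point a mouse with its number and each line the mean of 5. Each gene enters at its probeset with the highest mean. The choroid plexus level of D2 male 76 is 5.25 against 7.67 to 8.31 in the other D2 males. The thalamus and septum level of B6 male 67 is 9.42 against 7.32 to 7.81 in the other B6 males. Of these 5 lists only the microglia list has no overlap between strains (8.14 to 8.32 in B6, 7.92 to 8.06 in D2). That mean includes the called genes Fcrls, C1qc and C1qb, and a level without them was not computed.

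Differences are given as B6 minus D2 on the log2 scale of the deposited values, and a gene was called differentially expressed when the Benjamini-Hochberg adjusted p of limma over all kept probesets was under 0.01 at its best probeset. By this rule 532 of 10778 genes (4.94%) passed, of which 256 had B6 higher (2.38%) and 276 had D2 higher (2.56%). The balance turned under other scalings, with 303 B6 higher and 242 D2 higher after quantile normalization and 304 and 237 after centring each array on its median. The median size of the called differences was 0.73, against 0.11 over all genes, and it was 0.74 where B6 was higher and 0.73 where D2 was. Of the called genes, 351 differed at least 1.5-fold, 147 at least 2-fold and 36 at least 4-fold, with B6 higher in 21 of these and D2 higher in 15. The 5 B6 and 5 D2 values did not overlap for 528 of the 532 called genes, and for 1060 of all genes tested (9.83%). The median difference over all genes was -0.02.

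Calls were spread over expression levels. Of the 2695 genes with the lowest means 157 were called (5.83%), and of the 2694 with the highest 90 were (3.34%), with median sizes of 0.84 and 0.69. In 44 of the 256 genes higher in B6 (17.2%) the D2 mean lay below 6.19, the lowest mean that the filter kept. In 40 of the 276 genes higher in D2 (14.5%) the B6 mean did. Of all 10778 genes tested, 300 had a mean below it in either strain. The filter mean covered both strains, so a gene can pass through its higher strain alone. These shares follow in part from the filter and the size of the difference, and are not comparable. Whether a probeset below 6.19 in its lower strain was above background there is not known here. The size of its difference is therefore uncertain and may be understated or overstated. This holds for 11 of the 20 genes with the largest differences, Tia1, Tmem267, Kcnq5, Ptprg, Pdxdc1, Stab2, Pnpt1, Ntrk3, Supt16, H2-D1 and Cuedc1, and their order by size is open to the same limit. Without B6 male 67 and D2 male 76 the number of called genes was 534, and 404 of these were among the 532.

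The largest measured difference with B6 higher was at 1 of the 6 tested probesets of Tia1, which encodes an RNA-binding protein of stress granules. Its values were 9.30, 9.22, 9.15, 8.77 and 9.05 in B6 males 66 to 70 and 4.64, 4.77, 4.94, 4.79 and 4.68 in D2 males 76 to 80. The strains lay more than 3 log2 units apart at their nearest mice, and the difference was 4.33 (standard error 0.101, adjusted p = 3.30e-10). Snhg14, the long imprinted transcript that hosts small nucleolar RNAs and runs antisense to Ube3a, was 10.53, 10.42, 10.53, 10.17 and 10.62 in B6 and 5.72 to 6.87 in D2. Its difference was 4.19 (standard error 0.183, adjusted p = 4.49e-08), and the D2 values were spread more widely (SD 0.44) than the B6 values (SD 0.17). Tmem267, a membrane protein gene of unknown role, had a B6 mean of 8.57 ± 0.30 and a D2 mean of 4.44 ± 0.35 (SD, n = 5 each).

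Several further genes with B6 higher at their best probeset act in neurons. Sox11, a transcription factor gene of neuronal development, was 9.55, 8.94, 9.66, 10.06 and 9.51 in B6 and 5.93 to 6.53 in D2, a difference of 3.30. Kcnq5, which encodes a potassium channel subunit of the M current, was 8.27, 7.14, 7.80, 8.40 and 7.92 in B6 and 4.89, 4.31, 4.74, 4.71 and 4.75 in D2, a difference of 3.23. Camk2n1, an inhibitor of calcium/calmodulin kinase II, was 10.59, 9.98, 10.71, 10.77 and 10.67 in B6 and 7.73, 7.63, 7.50, 7.87 and 7.74 in D2. B6 male 67 was the lowest B6 mouse for all 3 of these genes, yet still more than 2 log2 units above every D2 mouse. The others of the 10 largest were the receptor phosphatase gene Ptprg (3.09), the decarboxylase-like Pdxdc1 (2.98), the securin gene Pttg1 (2.92) and Rpgrip1 (2.82), known for its part in photoreceptor cilia. Adjusted p-values of the 10 genes lay between 3.30e-10 and 1.17e-06. Sox11, Kcnq5, Camk2n1, Ptprg and Pdxdc1 each had another probeset with the opposite sign, as given below. That probeset was called for Sox11 (-1.36) and Pdxdc1 (-4.10).

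The largest difference with D2 higher was at Cap1, an actin-binding protein gene first found through adenylyl cyclase in yeast. Its values were 7.35, 6.19, 7.59, 7.52 and 7.44 in the B6 males and 11.42, 11.36, 11.41, 11.30 and 11.51 in the D2 males. The D2 mice were nearly alike (SD 0.08) while B6 male 67 fell below its group, and the difference was -4.18 (standard error 0.225, adjusted p = 2.43e-07). Stab2, a scavenger receptor gene that takes up hyaluronan in sinusoidal vessels, was 4.92, 4.93, 4.62, 4.72 and 5.04 in B6 and 7.86, 8.93, 8.78, 8.63 and 8.79 in D2. D2 male 76 was the lowest D2 mouse, and the difference was -3.75 (adjusted p = 8.97e-08). Pnpt1, which encodes the mitochondrial polynucleotide phosphorylase, had a B6 mean of 4.90 ± 0.27 and a D2 mean of 8.06 ± 0.12 (SD, n = 5 each).

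Genes of neuronal signalling were also among the 10 largest with D2 higher. Ntrk3, the neurotrophin-3 receptor TrkC, was 4.72, 4.20, 5.29, 4.90 and 4.59 in B6 and 7.40, 7.67, 8.16, 7.22 and 7.80 in D2. Kcnj9, which encodes the GIRK3 subunit of G protein-gated potassium channels, was 7.40, 7.43, 7.75, 7.68 and 6.81 in B6 and 10.20, 10.48, 9.81, 10.27 and 9.58 in D2. Both genes had wide spreads within each strain (SD 0.36 to 0.40), well below their differences of -2.91 and -2.65. Also in this group were the histone chaperone gene Supt16 (-2.80), the class I histocompatibility gene H2-D1 (-2.73), the Golgi protein gene Tmem87a (-2.66), the ubiquitin-binding Cuedc1 (-2.44) and Clasp2 (-2.24), which stabilizes microtubule ends. The 10 adjusted p-values were between 2.28e-09 and 4.76e-06.

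**Figure D2:**
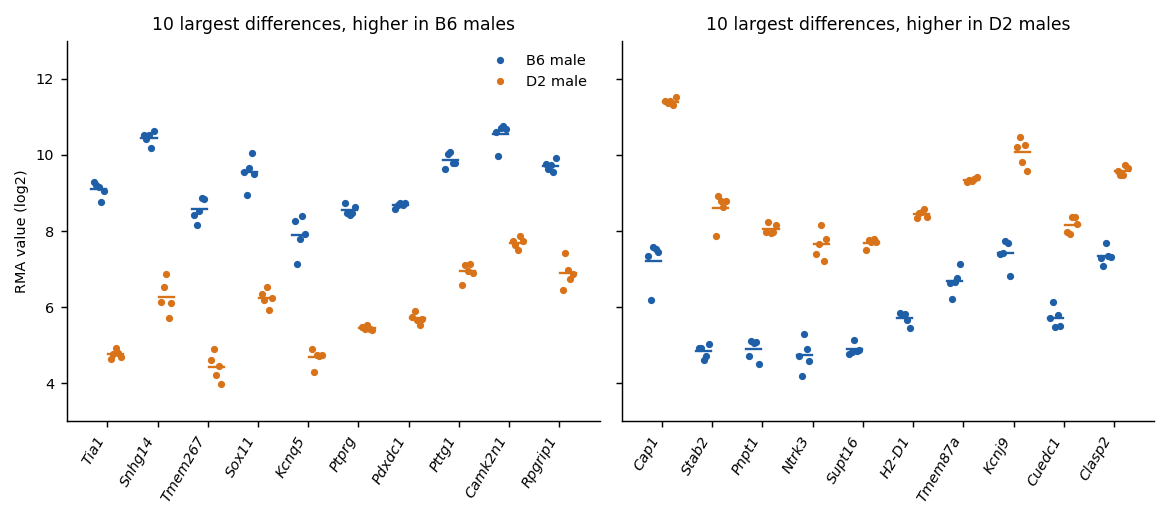
RMA values (log2, y axis) of the 10 genes with the largest difference in each direction, each point 1 of 5 B6 males (blue) or 5 D2 males (orange) and each line the mean of 5. Genes were chosen among those without overlap, and for Tia1 all B6 males lie at 8.77 or more and all D2 males at 4.94 or less.

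For many genes the difference was seen by some probesets and not by others. Of the 532 called genes, 231 had 1 tested probeset and 301 had several, and of these 301 only 70 had at least 2 called. In 57 of the 70 the called probesets had one direction, and in 13 they went both ways. Tia1 had 6 tested probesets, and the other 5 had differences of -0.31 to -0.09, with none called. The other probesets of Snhg14 (-0.08), Kcnq5 (-0.13 and 0.02), Ptprg (-0.47 and -0.08), Camk2n1 (-0.35) and Pnpt1 (0.13) were not called either. Nor were the 4 other probesets of Ntrk3 (-0.19 to -0.12) or the other probeset of Cuedc1 (-0.28). Of the 3 probesets of Kcnj9, 2 were called (-2.65 and -1.19) and the last differed by -0.07. By contrast both probesets of Cap1 (-4.18 and -4.83) and of Supt16 (-2.80 and -1.79) and all 3 of Clasp2 (-2.24, -2.05 and -1.64) were called in one direction. When the brightest probeset of each gene was read instead, 351 of the 532 genes were still called, and 86 of the 532 had the other sign at that probeset.

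Pdxdc1 had called probesets in both directions. One had B6 higher, at 8.57, 8.69, 8.73, 8.68 and 8.75 in B6 and 5.75, 5.89, 5.67, 5.52 and 5.69 in D2, and another had D2 higher, with means of 5.65 in B6 and 9.75 in D2, a difference of -4.10 (adjusted p = 2.11e-09). Its last probeset differed by 0.91. The same was true of Sox11 (3.30 and 0.46 against -1.36), Prune2 (2.69 against -1.02) and the clock gene Per3 (0.94 against -1.06). Such a gene has no single direction on this array. Whether the probesets read different transcript ends was not tested.

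**Figure D3:**
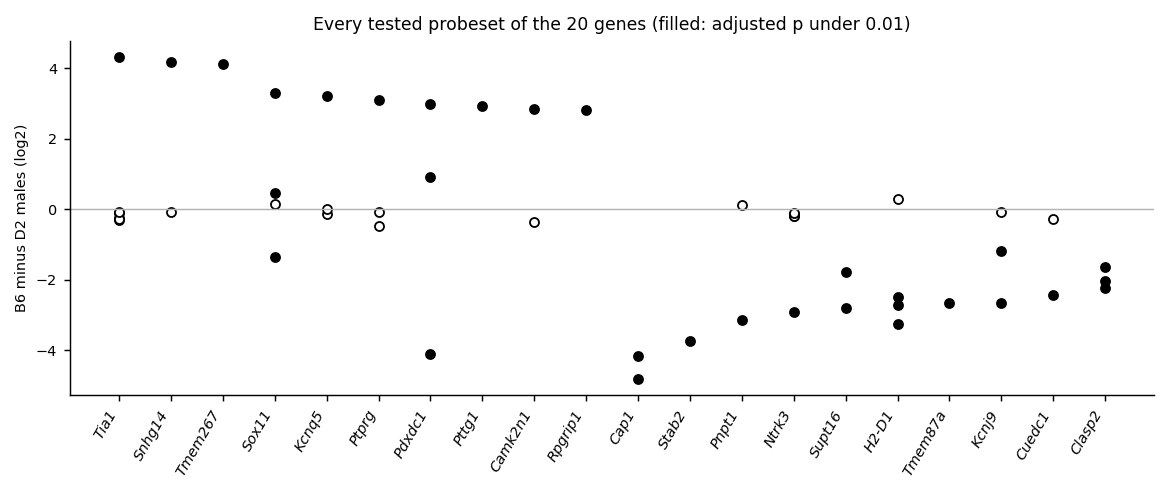
Difference between B6 and D2 males (log2, y axis) at every tested probeset of the 20 genes with the largest differences, filled where the adjusted p is under 0.01. All probesets of Cap1, Supt16 and Clasp2 are called with D2 higher, 5 of the 6 of Tia1 lie between -0.31 and -0.09, and Pdxdc1 ranges from -4.10 to 2.98.

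Among the 21 tested genes of the medium spiny neuron list, 3 were called, all higher in B6, against 4.94% of all genes called in either direction. The median difference was 0.20. Rasd2, the striatum-enriched small GTPase Rhes, had a mean of 10.56 ± 0.54 (SD, n = 5) and a highest value of 11.25 in B6, against 9.49, 9.24, 9.18, 8.46 and 9.06 in the D2 males. It was thus 1.47 higher in B6 (standard error 0.253, adjusted p = 0.00342). Bcl11b, the transcription factor Ctip2 that defines these neurons, was 10.87, 9.99, 10.80, 11.10 and 11.06 in B6 and 9.65, 9.22, 9.74, 9.14 and 9.93 in D2, a difference of 1.23 (adjusted p = 0.00408). The groups did not overlap for either gene, but the nearest mice of Bcl11b were 9.99 and 9.93. The 3 other probesets of Bcl11b differed by -0.15 to 0.21 and were not called. Scn4b, the sodium channel β4 subunit of fast-firing and striatal neurons, was 12.11, 11.81, 11.95, 12.59 and 12.64 in B6 and 10.92, 10.93, 10.89, 10.82 and 11.41 in D2, a difference of 1.23 (adjusted p = 8.29e-04). The adjusted p of Rasd2 rose to at most 0.012 and that of Bcl11b to at most 0.0134 when single mice were left out, which ended the call in 4 and 6 of the 10 cases.

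Other medium spiny neuron genes did not pass the test. Ppp1r1b differed by 0.11, Adcy5, the main striatal adenylyl cyclase, by 0.30 and Pde10a by 0.32, while Rgs9 (-0.66) and Arpp21 (-0.79) were lower in B6 with adjusted p-values of 0.124 and 0.0254. The mean level of the list was read at the brightest probeset of each gene, which for Bcl11b is not the called one. It was 11.02, 10.56, 10.96, 11.24 and 11.56 in the B6 males and 10.85, 10.73, 10.79, 10.53 and 11.10 in the D2 males. It overlapped between strains, and the lowest B6 mouse was number 67, whose thalamic and choroid plexus signals were the highest. None of the 7 tested direct-pathway genes was called (median 0.24), and Drd1, Tac1 and Pdyn differed by 0.25, 0.17 and -0.07. None of the 4 tested indirect-pathway genes was called (median 0.39, all 4 above 0), with Drd2 at 0.45 (adjusted p = 0.335), Penk at 0.29 and Gpr6 at 0.44. Adora2a was not among the genes with values. With 4.94% of all genes called, lists this short would often hold no call. Drd2 and Plxdc1 were called on the Illumina arrays, as given below.

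Microglia, the resident macrophages of the brain, make the complement protein C1q and carry lineage receptors such as Fcrls and Siglech. Of the 18 tested genes of their list 4 were called, all higher in B6, against 4.94% of all genes called in either direction. The median difference was 0.17. Fcrls, an Fc receptor-like scavenger receptor, was 8.46, 8.33, 8.54, 8.46 and 8.53 in B6, against a mean of 6.79 ± 0.14 (SD, n = 5) and a highest value of 7.01 in D2. It was thus 1.67 higher in B6 (standard error 0.0794, adjusted p = 8.97e-08). C1qc was 8.78, 8.92, 9.10, 9.01 and 8.97 in B6 and 7.84, 7.78, 7.59, 7.81 and 7.86 in D2, a difference of 1.18 (adjusted p = 1.43e-06). C1qb was 9.13, 9.15, 9.33, 9.23 and 9.25 in B6 and 8.16, 8.44, 8.01, 8.44 and 8.29 in D2, a difference of 0.95 (adjusted p = 3.62e-05). The mice of each strain lay close together for these 3 genes, including B6 male 67 and D2 male 76. Siglech, a sialic acid-binding lectin, differed by 0.36 (adjusted p = 0.00644), and this call was lost in 8 of 10 cases when a single mouse was left out (adjusted p up to 0.0209).

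The rest of the microglia list did not move as one. C1qa, which encodes another chain of C1q and lies beside C1qb and C1qc in one gene cluster, differed by 0.06 (adjusted p = 0.814). Csf1r, the receptor on which microglia depend, differed by -0.05, Cd53 by 0.01 and Laptm5 by 0.06. Tyrobp (0.37), Tmem119 (0.29), Selplg (0.30) and Fcer1g (0.29) had B6 higher and Ctss (-0.31) and P2ry12 (-0.24) had D2 higher, none of them called. A further probeset of C1qb differed by -0.13 and was not called. The mean level over 20 microglia genes was 8.14 to 8.32 in B6 and 7.92 to 8.06 in D2. This mean includes Fcrls (1.67), C1qc (1.18) and C1qb (0.95), and a level without them was not computed. Of the 18 tested differences 12 were above 0.

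The promoters of the 3 microglial genes with the largest differences are shown, chosen by the size of the difference. Each run is the 250 bases before the transcription start in RefSeq, assembly GRCm38.p6 of the B6 genome, and the capitals mark GAGGAA or its reverse complement TTCCTC, the core letters bound by PU.1, the transcription factor that defines the macrophage lineage. C1qb lies at chr4:136886201-136886450 (minus strand), C1qc at chr4:136892915-136893164 (minus strand) and Fcrls at chr3:87263525-87263774 (minus strand).
C1qb: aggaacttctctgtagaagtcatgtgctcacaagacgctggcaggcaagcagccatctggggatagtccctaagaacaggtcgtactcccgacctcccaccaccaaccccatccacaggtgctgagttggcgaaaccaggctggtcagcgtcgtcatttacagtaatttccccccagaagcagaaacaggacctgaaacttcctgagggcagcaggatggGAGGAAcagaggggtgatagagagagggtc
C1qc: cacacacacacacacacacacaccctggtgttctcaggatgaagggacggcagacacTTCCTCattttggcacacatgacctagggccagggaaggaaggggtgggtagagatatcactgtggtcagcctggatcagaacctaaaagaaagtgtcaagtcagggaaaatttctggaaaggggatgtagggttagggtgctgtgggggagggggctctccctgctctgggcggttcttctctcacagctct
Fcrls: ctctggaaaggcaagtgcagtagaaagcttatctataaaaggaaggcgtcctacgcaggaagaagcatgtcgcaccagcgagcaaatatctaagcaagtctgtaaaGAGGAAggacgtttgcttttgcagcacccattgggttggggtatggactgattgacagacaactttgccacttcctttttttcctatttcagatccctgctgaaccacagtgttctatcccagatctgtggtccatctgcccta
Each window held 1 match, that of Siglech held none, and 23.3% of the 32851 promoter windows of the same length held at least 1. A match is a description of these letters, and the D2 sequence of the windows was not used here.

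Astrocyte genes differed in both directions. Of 18 tested genes 2 were called, against 4.94% of all genes, with a median of 0.06 over the list. Slc1a2, the glutamate transporter GLT-1, was 7.65, 6.75, 7.39, 7.58 and 7.11 in B6 and 8.71, 9.56, 9.66, 8.86 and 8.92 in D2, a difference of -1.85 (adjusted p = 2.15e-04). Its other probesets, one of which had a mean of 12.89 in B6, differed by -0.11 and 0.05 and were not called. Aldoc, a glycolytic aldolase, was 8.16, 8.27, 8.50, 8.39 and 8.53 in B6 and 7.79, 7.95, 7.48, 7.80 and 7.59 in D2, a difference of 0.65 (adjusted p = 0.00207). Of the 15 tested blood vessel genes only Vtn was called, which encodes vitronectin and is made by brain pericytes. Vtn differed by 0.50 (adjusted p = 0.00584, up to 0.0229 over the alternatives), while the median of the list was 0.27 and all 15 differences were above 0. No gene of the 13 oligodendrocyte genes (median 0.19) or the 8 precursor genes (median 0.09) was called, and Mobp, a myelin protein gene, came nearest at 0.90 (adjusted p = 0.0301). The oligodendrocyte level was highest in B6 male 67 (11.42) and lowest in D2 male 76 (10.22).

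**Figure D4:**
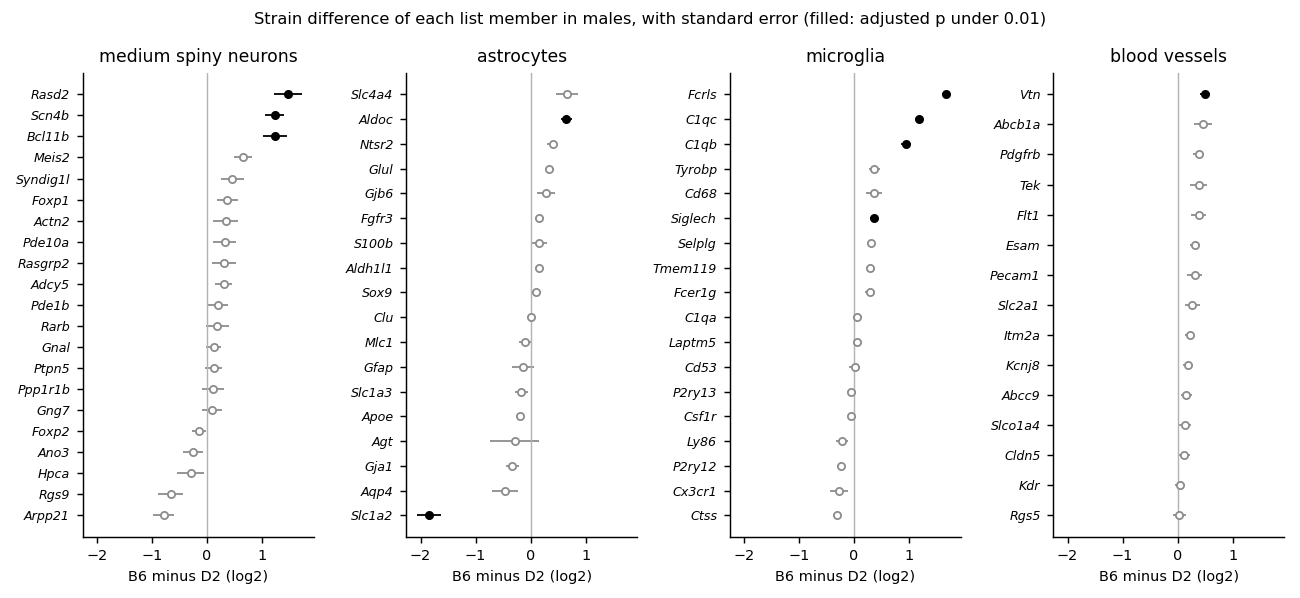
Difference between B6 and D2 males (log2, x axis) of each tested member of 4 cell type lists, with its standard error, filled where the adjusted p is under 0.01. The called members are Rasd2, Scn4b and Bcl11b, Aldoc and Slc1a2, Fcrls, C1qc, C1qb and Siglech, and Vtn, and the other members of the microglia list lie between -0.31 and 0.37.

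The calls in receptor and channel families are set against the 4.94% of all genes that were called. Of 9 GABA-A receptor subunit genes 2 were called, with a median of -0.07. Gabra2, the α2 subunit, a gene known to carry an intronic deletion in C57BL/6J, was 8.49, 8.43, 8.60, 8.34 and 8.83 in B6 and 9.63, 9.86, 9.80, 9.42 and 9.59 in D2. All 3 of its probesets were called, at -1.12, -1.22 and -1.32. Gabrb2, the β2 subunit, had B6 higher by 0.80 at 1 of its 4 probesets (adjusted p = 2.98e-04), and the others differed by -0.23 to 0.21. Of 20 glutamate receptor genes 3 were called, with a median of -0.17. Grm7, a presynaptic metabotropic receptor, was 5.52, 5.16, 5.72, 5.92 and 5.43 in B6 and 7.72, 7.62, 7.94, 7.54 and 7.73 in D2, a difference of -2.16. Its other 2 probesets differed by -0.16 and -0.11. Gria1, an AMPA receptor subunit, differed by -0.99 at one probeset and by 0.01 at another. Grin2b, an NMDA receptor subunit, had B6 higher at 2 of 3 probesets (0.94 and 1.67).

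Of 53 potassium channel genes 3 were called, against 4.94% of all genes (median -0.04). They were Kcnq5 and Kcnj9, given above, and Kcnj11, the Kir6.2 pore of ATP-sensitive channels. Kcnj11 was 8.14, 7.85, 7.87, 8.04 and 8.10 in B6 and 7.62, 7.46, 7.27, 7.48 and 7.45 in D2, a difference of 0.54 (adjusted p = 0.00164). Of 26 sodium and calcium channel genes only Scn4b was called (median 0.03). Of 39 genes of G protein subunits and RGS proteins only Gnb1 was called (median -0.01). Gnb1, the β1 subunit, was 8.37, 8.09, 8.64, 8.50 and 8.50 in B6 and 9.99, 10.08, 9.92, 10.21 and 10.33 in D2, and both of its probesets were called (-1.69 and -1.95). The 11 tested dopamine signalling genes held no call, with a median of 0.25 and a range of -0.19 to 0.45.

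Of 23 neuropeptide and processing genes 2 were called, both with D2 higher, against 4.94% of all genes (median -0.07). Pam, the enzyme that amidates neuropeptides, was 7.13, 7.66, 7.77, 7.05 and 7.19 in B6 and 9.64, 9.26, 9.16, 9.08 and 9.45 in D2, a difference of -1.96 (adjusted p = 8.39e-06). Scg5, the chaperone 7B2 of the prohormone convertase Pcsk2, had a B6 mean of 11.44 ± 0.15 and a D2 mean of 12.38 ± 0.06 (SD, n = 5 each), which differed by -0.94. Of 24 synaptic vesicle and SNARE genes 2 were called (median -0.14, with 2 of 24 differences above 0). Sv2c, the vesicle glycoprotein enriched in the basal ganglia, was 5.07, 5.10, 5.51, 5.90 and 5.19 in B6 and 7.24, 6.78, 7.41, 6.34 and 7.39 in D2, a difference of -1.68 (adjusted p = 5.08e-04). Napa, the SNARE disassembly factor α-SNAP, differed by -0.38 (adjusted p = 0.00742), a call that was lost in 8 of 10 cases without a single mouse (adjusted p up to 0.0243), and by 0.00 at its other probeset. Of 13 circadian clock genes only Per3 was called, with D2 higher at its leading probeset (7.59 ± 0.12 in B6 and 8.65 ± 0.10 in D2, SD, n = 5) and B6 higher at another, as given above.

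Of 25 antioxidant and detoxification genes 3 were called, against 4.94% of all genes (median 0.03). Prdx2, a peroxiredoxin that reduces hydrogen peroxide, was 9.12, 9.32, 9.38, 9.39 and 9.14 in B6 and 7.20, 7.13, 7.18, 6.96 and 7.23 in D2, a difference of 2.13 (adjusted p = 1.31e-08). Glo1, the glyoxalase whose copy number is known to vary between inbred strains, was 9.21, 9.60, 9.42, 9.46 and 9.35 in B6 and 10.32, 10.70, 10.53, 10.69 and 10.47 in D2. All 3 probesets of Glo1 were called (-1.13, -1.06 and -0.73). Gsto1, an omega-class glutathione transferase, differed by 0.56 (adjusted p = 1.18e-04).

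In heme synthesis 1 of 7 genes was called, against 4.94% of all genes (median -0.05). Alad, the second enzyme of the pathway, whose gene is known to be duplicated in DBA/2J, was 7.87, 8.08, 8.21, 8.25 and 8.08 in B6 and 9.48, 9.52, 9.43, 9.53 and 9.60 in D2, and both of its probesets were called (-1.41 and -0.56). In cholesterol synthesis 1 of 12 genes was called (median -0.03). Sc5d, a late desaturase of the pathway, was 9.28, 9.31, 9.07, 9.50 and 9.05 in B6 and 7.30, 7.41, 7.09, 7.60 and 7.25 in D2, a difference of 1.91, while its other probesets differed by 0.45, which was called, and by 0.09. Of 13 cytosolic ribosomal protein genes Rpl14 (-1.73) and Rps3 (0.78) were called, and of 61 respiratory chain genes only Cox18 (-0.52), an assembly factor of cytochrome oxidase and not a subunit. No call was made among the 36 proteasome, 7 interferon response, 16 immediate early or 12 heat shock and glucocorticoid response genes. The medians of those lists were -0.04, 0.06, 0.27 and 0.22.

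H2-D1 was the only called gene of 7 tested genes of MHC and antigen presentation, against 4.94% of all genes (median -0.02). It was 5.85, 5.80, 5.81, 5.66 and 5.46 in B6 and 8.33, 8.48, 8.49, 8.57 and 8.38 in D2. The strains carry different haplotypes of this locus. Its 4 probesets all belong to the kind that can bind several related transcripts, 3 of them were called (-2.73, -3.26 and -2.48) and the last differed by 0.29, so the value for H2-D1 itself is uncertain.

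A list of 19 genes already known to differ between these strains, chosen partly with earlier results of these data in view, held 13 tested genes. Of these 1 was called with B6 higher (Prdx2) and 6 with D2 higher (Cap1, Tmem87a, Kcnj9, Alad, Glo1 and Gabra2), with a median of -0.54. Of all genes 4.94% were called, but the list was chosen partly by these data, so its calls give no independent support. Mpdz, a scaffold gene of the seizure and withdrawal interval on chromosome 4, differed by 0.37 (adjusted p = 0.0371), and Myo5a, the gene of the dilute coat colour, by 0.39 (adjusted p = 0.0335). Kcnj10 differed by -0.54 (adjusted p = 0.107), Nnt by -0.28 (adjusted p = 0.0245) and Ahr by 0.03. Kcnj10 is expressed in astrocytes and was highest among B6 mice in number 67 (10.67, against 9.71 to 10.09), and without that mouse its difference was -0.70 (adjusted p = 0.00395, with a range of 0.00213 to 0.226 over the alternatives).

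Called genes lay on all 19 autosomes and on X, as placed by RefSeq. The share of tested genes that were called was lowest on chromosome X, with 8 of 343 genes (2.33%), and highest on chromosome 1, with 51 of 629 (8.11%). Of 530 called genes with a place, 121 (22.8%) had a called gene as the next tested gene on at least one side, as had 8.69% of the genes not called. The 65 adjacent pairs of called genes had one direction in 32, so neighbours shared a sign about as often as not. There were 9 runs of 3 called neighbours. On chromosome X Mid1 (1.87), G530011O06Rik (1.41) and Erdr1 (1.02) were all higher in B6, and on chromosome 11 Snrnp25 (-0.34), Rhbdf1 (-0.37) and Mpg (-0.62) were all higher in D2, while the other 7 runs held both directions.

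The same differences were read in the 10 female mice, which had no part in the test that called the genes, although their arrays entered the filter on mean level. All 532 genes had the same direction in the females, as had 76.7% of all genes. At the probesets chosen in the males 332 of the 532 (62.4%) were called in the females, against 417 of all 10778 genes (3.87%). The female difference was a median of 0.86 of the male one, at 0.88 where B6 was higher and 0.85 where D2 was. Genes and probesets were chosen by their male p-values, which can enlarge the male differences. A ratio under 1 therefore cannot show that the differences were smaller in females. One array, labelled B6 female 64, had values between those of both strains, and without it 410 of the 532 were called in females and the median ratio was 0.95. For Tia1 the female difference was 4.18, for Cap1 -3.50, for Fcrls 1.74, for C1qc 1.07, for Rasd2 1.23 and for Scn4b 0.98.

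The test of whether the strain difference itself differed between the sexes called no gene. With limma the count was 0 of 10778 genes (0%) at an adjusted p under 0.01 and 0 under 0.05, while 347 of 19437 probesets (1.79%) had an unadjusted p under 0.05. Among the 532 genes, 42 (7.89%) had an unadjusted p under 0.05. These genes and their probesets were chosen by the male p-value, which favours large male differences. Their share is therefore not comparable with the 1.79% of all probesets. The largest change between sexes among the 532 was that of Stab2, -3.75 in males and -2.76 in females. These values include B6 female 64, and without it the female difference of Stab2 was -3.40 and the largest change was that of G530011O06Rik, 1.41 in males and 2.25 in females. The 6 genes with the lowest p included Acer2, an alkaline ceramidase, with differences of 0.01 in males and -0.84 in females (unadjusted p = 3.96e-04, adjusted p = 1), and Myt1l, a neuronal zinc finger protein, with -1.53 and -0.70 (unadjusted p = 9.22e-04, adjusted p = 1). The other 4 were Rnf170, Srrm1, Tcf12 and Ncald, with male differences of -0.54 to -0.30 and female differences of -0.02 to 0.18.

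**Figure D5:**
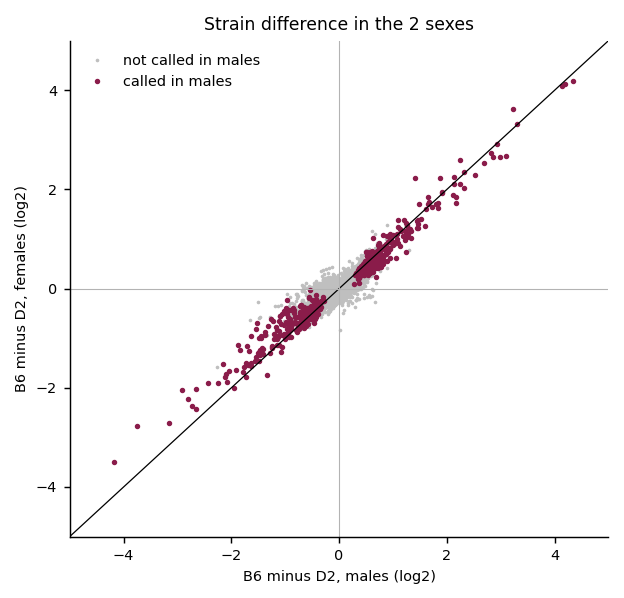
Difference between B6 and D2 in females (log2, y axis) against that in males (log2, x axis) for 10778 genes, dark where called in males and grey elsewhere, with the line of equal differences. All 532 called genes lie where both differences have the same sign.

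The Illumina arrays of 24 other male mice tested 336 of the 532 genes, with values on a variance-stabilized scale whose sizes are not comparable with the RMA values. The direction was the same for 268 of the 336 (79.8%), as it was for 62.9% of the 6758 genes tested on both arrays. Of the 336 genes 185 (55.1%) were called there, against 11.3% of the 6758, and 168 of the 185 had the same direction and 17 the opposite one. Of the genes above, Tmem87a (-1.35), Alad (-1.10), Prdx2 (1.09), Scg5 (-1.04), Glo1 (-0.97), Rps3 (0.90), Cap1 (-0.79), C1qb (0.77), Gnb1 (-0.75), Fcrls (0.73) and C1qc (0.58) were called with the same direction. Scn4b (0.51) and Bcl11b (0.57) were also called there, with adjusted p-values of 2.03e-04 and 0.00248. Further calls in the direction of the leading Affymetrix probeset were Pdxdc1 (0.67), Slc1a2 (-0.45), Gria1 (-0.44) and Ntrk3 (-0.40). Grm7 (-0.29), Napa (-0.29), Tmem267 (0.24) and Cox18 (-0.24) were called in that direction too. Tia1 was called there at -0.19 (adjusted p = 0.00991), opposite to its leading Affymetrix probeset and on the same side as its other 5. Kcnq5 (0.04), Camk2n1 (-0.14), Sc5d (0.06), Siglech (0.16), Vtn (0.18) and Gabrb2 (-0.16) were called in the Affymetrix males but not on the Illumina array. The same was true of Aldoc (0.24), Gsto1 (0.32), Per3 (-0.17), Pam (-0.41), Myt1l (-0.15) and Tcf12 (-0.01). Among these genes, Camk2n1 and Gabrb2 had the opposite sign on the Illumina array. Of the named genes not called in the Affymetrix males, 4 were called on the Illumina arrays. The indirect-pathway genes Drd2 (0.40, adjusted p = 0.00877) and Plxdc1 (0.35, adjusted p = 0.00103) had B6 higher, as in the Affymetrix males (0.45 and 0.34), and Acer2 (-0.62, adjusted p = 3.03e-07) had D2 higher. Fcer1g differed by 1.32 (adjusted p = 5.98e-18), and its Illumina probe was detected on 0 of 12 D2 arrays.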

How the data were processed

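Striatal RNA of 10 male mice was measured with 1 Affymetrix MOE430 2.0 array per mouse. The authors deposited log2 values, made by robust multichip average (RMA) from perfect-match probes with background correction, quantile normalization and summarization, after probes over SNPs or with several alignments had been masked. The submitters' notes name MAS5 5.0, whose detection calls were not used here. For the other male mice, the authors deposited Illumina values on a variance-stabilized log2-like scale, which is close to log2 for bright probes, and the deposited GenomeStudio bead signal intensity with a detection p-value per probe. Robust spline normalization is named in the methods, although the sorted values are the same on every array. A second table of the same normalized Illumina values was not used.

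Affymetrix probesets with values on all arrays, without controls, were kept in the upper 50% by mean over the 20 arrays. An Illumina probe was tested if all arrays of either strain had detected it (p under 0.05). Linear models with moderated variance (limma 3.58.1 in R 4.3.3, with statmod 1.5.0) compared B6 with D2, and Benjamini-Hochberg adjustment ran over all kept probesets with a threshold of 0.01. The males alone entered their fit, the 4 groups of strain and sex entered the test of strain by sex, and females and Illumina males were fitted alone. Each gene took the values of the probeset whose adjusted p was lowest, and 2577 kept probesets without a single gene symbol were tested but not named. Mean levels of the lists instead used the probeset of each gene with the highest mean over the 20 arrays, without the filter. Symbols are those of the platform annotation, and promoters were read from RefSeq (GRCm38.p6) by symbol. The named genes are the 10 largest called differences in each direction without overlap, up to 4 called members of each list, all tested members of the lists of known differences, of Y-linked genes and X inactivation and of the direct and indirect pathways, the 6 with the lowest p for strain by sex, and the 6 with the largest SD within each strain. Genes beyond this rule were chosen after their values were seen. The members and lists were chosen with earlier results of these data known. The fits were tested on simulated data. P-values measure the spread between these mice, the number of arrays limits precision, and no slide or scan batch was given. Alternatives covered normalization, filters, variance models, arrays, covariates, thresholds and the probeset of a gene.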

Additional observations from a re-analysis of the deposited data

Results flagged for a closer look

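Of 192 sets of 5 mice examined (named genes, marker lists and marker genes in each strain), 14 held a mouse whose gap to the others exceeded the critical share of their range, which chance gives in about 1 in 20 sets of genes not picked for their spread. That rate does not apply to 5 of the 14, which belong to genes chosen for the largest SD, and of these Ttr and Kl are also members of the choroid plexus list. The sets not chosen for SD were flagged at about the rate that chance gives. D2 male 76 accounts for 8 of the 14, which are not separate signals where they share choroid plexus genes. Its choroid plexus list mean was 5.25 (others 7.67 to 8.31), Ttr was 7.13 (13.93 to 14.18) at one probeset and 5.96 (13.66 to 13.91) at another, Kcnj13 was 5.54 (8.87 to 9.79), Kl was 4.99 (8.09 to 8.97) and Calml4 was 4.70 (8.08 or more). In the same mouse the oligodendrocyte precursor list mean was 8.84 (9.04 to 9.11) and Stab2 was 7.86 (8.63 to 8.93).

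B6 male 67 stood apart in 4 sets. Its thalamus and septum list mean was 9.42 (others 7.32 to 7.81), Camk2n1 was 9.98 (10.59 to 10.77), Cap1 was 6.19 (7.35 to 7.59) and Bcl11b was 9.99 (10.80 to 11.10). B6 male 68 was high for Supt16 at 5.13 (4.78 to 4.87), and D2 male 80 was high for Scn4b at 11.41 (10.82 to 10.93). What sets these mice apart was not tested.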

How the results depend on the processing

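The count of 532 genes between males became 982 at an adjusted p under 0.05, 351 with a 1.5-fold minimum and 351 at the probeset of each gene with the highest mean, and without single mice it ranged from 393 to 543. The other alternatives gave 497 to 779. With the choroid plexus, thalamus or cortex list mean as a covariate, added after seeing the data, 442, 519 and 462 of the 532 were still called, and without B6 male 67 and D2 male 76 together, 404. Females gave 439 genes, 812 at an adjusted p under 0.05, and 271 to 586 without single mice, the highest without B6 female 64. Illumina males gave 925 genes and 1553 at an adjusted p under 0.05. Strain by sex gave 0 genes in every alternative run.

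At the probeset with the highest mean the sign turned for Tia1 (-0.12), Sox11 (-1.36), Kcnq5 (-0.13), Ptprg (-0.08), Pdxdc1 (-4.10), Camk2n1 (-0.35), Pnpt1 (0.13), H2-D1 (0.29), Slc1a2 (0.05), Gabrb2 (-0.23), Gria1 (0.01), Napa (0.00), Myt1l (0.08) and Tcf12 (0.07). Under the 23 alternatives that keep the probeset, 47 of the 52 called named genes stayed called, and Bcl11b, Napa, Rasd2, Siglech and Vtn were lost in some. The cause was not tested.

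The numbers of the Affymetrix males are not shared between strains, so they allow no pairing. With the Illumina array number as a replicate block 677 genes were called, but same-numbered arrays correlated at a median of -0.10 and 0 of 12 correlated best with their own number, so the arrays share only a number. With 5 arrays a strain, the number of arrays limits what could be called.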
